A study of Mus musculus with 8 samples.

Results

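The genes described here are 10 genes of the pluripotency network of mouse ES cells, *Pou5f1* (*Oct4*), *Nanog*, *Esrrb*, *Tcl1*, *Zfp42* (*Rex1*), *Klf4*, *Tdgf1*, *Dppa3*, *Dppa4* and *Tbx3*, taken by name from the 22380 protein-coding genes of the GENCODE vM1 annotation. Their CpGs were all those listed in the oxRRBS files from 5 kb upstream of the first transcription start site (TSS) to the end of the gene in the genome build mm9. A total of 367 of the 757812 listed CpGs met this rule. *Esrrb* had 115 of them, *Klf4* 112, *Tbx3* 93, *Zfp42* 14, *Pou5f1* 10, *Tcl1* 10, *Dppa3* 6, *Nanog* 5 and *Tdgf1* 2. *Dppa4* had none and was not covered. Promoter CpGs lay from 1 kb upstream to 0.5 kb downstream of any annotated TSS of the gene, upstream CpGs lay before them, and the others were counted as gene body.

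The libraries came from neural precursor cells (NPCs) differentiated from A2lox.cre mouse ES cells that carried a doxycycline-inducible shRNA, either a non-targeting control (shScr) or one against the dioxygenase gene *Tet3* (shTet3). Doxycycline was given to both at 2 µg/ml for 5 days, so the control also received the drug. Each shRNA had 2 replicates, and the DNA of each was divided into a bisulphite library (BS), which reads 5-methylcytosine (5mC) and 5-hydroxymethylcytosine (5hmC) together as C, and a library oxidised before bisulphite treatment (oxBS), in which only 5mC reads as C. The design gave 8 libraries with 42516767 to 61865967 CpG calls each and a median coverage of 30 to 48 calls at the CpGs of the pluripotency genes. The labels name no clones or separate differentiations behind the replicate numbers, so the spread between replicates, which limma and the F test use, may be technical. The 2 shScr oxBS libraries were further apart from each other at the member CpGs (median absolute difference 3.75 points) than the 2 shTet3 oxBS libraries (2.17 points). The files hold DNA methylation and no expression, so neither the silencing of these genes nor the identity of the cells was checked here.

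The members play different roles in one network. *Pou5f1* and *Nanog* encode homeodomain transcription factors at its core, *Esrrb*, *Klf4*, *Tbx3* and *Zfp42* encode further transcription factors of naive ES cells, *Tcl1* encodes a co-activator of AKT kinase, *Tdgf1* encodes the NODAL co-receptor CRIPTO, and *Dppa3* (Stella) and *Dppa4* are early embryo and germ line factors. These genes are active in ES cells and are shut down when ES cells enter the neural lineage, and promoters with few CpGs commonly gain 5mC when their genes are shut down, whereas CpG islands usually stay free of it. TET enzymes oxidise 5mC to 5hmC, a step on the way to unmethylated cytosine.

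Reduced representation libraries hold CpGs close to cut sites. The enzyme MspI cuts at CCGG, a motif that reads the same on both strands, and 83.6% of the promoters of 22376 protein-coding genes (1 kb upstream to 0.5 kb downstream of the first TSS) held at least 1 such site. The promoter of *Klf4* was a CpG-rich sequence with 66.2% GC, a ratio of observed to expected CpGs of 0.930 and 12 CCGG sites, and that of *Tbx3* had 61.3% GC, a ratio of 0.781 and 11 sites, against medians of 51.8%, 0.481 and 5 over all promoters. The promoters of *Pou5f1*, *Esrrb*, *Dppa4*, *Nanog*, *Tcl1* and *Dppa3* were poor in CpGs, with ratios from 0.259 to 0.418, and those of *Zfp42* and *Tdgf1* had ratios of 0.535 and 0.55. The *Nanog* promoter held no CCGG. *Dppa4* had 4 sites in its promoter and 16 from 5 kb upstream to its end, although no CpG was listed there. The files covered 29.1% of the CpGs in the stretch of genome defined for *Klf4* and 17.5% of those for *Tbx3*, but only 1.02% to 6.54% of those of the 7 other covered genes.

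The stretches of mm9 below carry the CpGs on which the results turned at the members with few listed CpGs and at 2 places inside *Esrrb*. They are written in the sense of the gene, with the CpGs listed in the files in capitals and all other bases in lower case. The first holds the 3 promoter CpGs of *Tcl1* (chr12:106461260-106461323, minus strand), the second the 6 CpGs in an intron of *Tcl1* (chr12:106456177-106456371, minus strand), the third and the fourth lie in introns of *Esrrb* (chr12:87831682-87831848, plus strand and chr12:87859074-87859196, plus strand), the fifth spans a coding exon and an intron of *Dppa3* (chr6:122578724-122578926, plus strand), the sixth lies in the promoter of *Zfp42* (chr8:44392754-44392936, minus strand), the seventh upstream of *Nanog* (chr6:122652874-122653033, plus strand) and the last in the promoter of *Tdgf1* (chr9:110849139-110849156, minus strand).
Tcl1 promoter: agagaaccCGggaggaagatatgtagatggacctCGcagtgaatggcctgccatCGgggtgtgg
Tcl1 intron: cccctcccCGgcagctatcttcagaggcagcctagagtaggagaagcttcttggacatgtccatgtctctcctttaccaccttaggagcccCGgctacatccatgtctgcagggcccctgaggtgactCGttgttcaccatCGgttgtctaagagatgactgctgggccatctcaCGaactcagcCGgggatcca
Esrrb intron, 5′ stretch: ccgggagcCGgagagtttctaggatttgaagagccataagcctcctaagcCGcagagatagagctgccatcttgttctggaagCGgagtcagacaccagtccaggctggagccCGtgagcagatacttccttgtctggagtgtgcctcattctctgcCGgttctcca
Esrrb intron, 3′ stretch: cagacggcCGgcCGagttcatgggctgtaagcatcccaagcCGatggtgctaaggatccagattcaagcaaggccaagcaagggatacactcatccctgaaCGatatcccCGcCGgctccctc
Dppa3 exon and intron: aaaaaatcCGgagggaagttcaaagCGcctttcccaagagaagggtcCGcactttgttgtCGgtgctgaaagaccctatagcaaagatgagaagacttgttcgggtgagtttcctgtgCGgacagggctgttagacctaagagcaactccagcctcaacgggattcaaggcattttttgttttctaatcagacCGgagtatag
Zfp42 promoter: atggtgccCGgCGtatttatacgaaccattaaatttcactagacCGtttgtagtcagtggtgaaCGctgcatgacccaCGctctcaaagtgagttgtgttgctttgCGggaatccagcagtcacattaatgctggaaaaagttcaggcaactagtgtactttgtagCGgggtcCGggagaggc
Nanog upstream: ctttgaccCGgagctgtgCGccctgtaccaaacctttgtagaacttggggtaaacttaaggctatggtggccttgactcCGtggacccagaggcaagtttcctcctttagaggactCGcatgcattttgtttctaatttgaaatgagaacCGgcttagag
Tdgf1 promoter: atccctccCGacattgac

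CpGs called lower in 5mC in shTet3 than in shScr NPCs were found in *Esrrb* (20), *Tcl1* (4), *Tbx3* (4), *Dppa3* (1), *Tdgf1* (1) and *Klf4* (1). None was called in *Pou5f1*, *Nanog* and *Zfp42*, where 2 of 5, 2 of 5 and 10 of 13 tested CpGs were lower. Over all tested CpGs 53.6% were lower. *Klf4* was nearly free of 5mC in all libraries, and at *Pou5f1* and *Nanog* the oxBS values of the 2 shRNAs overlapped. Of the 315 CpGs with coverage of at least 10 in the 4 oxBS libraries, 31 were hypo-DMPs, which are CpGs lower in shTet3 at a *q* value below 0.01 and by more than 10 percentage points in a likelihood ratio test on the pooled calls. That is 9.84% of them, against 13.9% of all 662455 CpGs tested. No hyper-DMP was found by the likelihood ratio test (0.0814% of all CpGs), and 0 CpGs were higher by over 10 points at an unadjusted p below 0.05 by that test, by Fisher's exact test or by the F test. Reads carry no molecular identifiers, so the likelihood ratio test, Fisher's exact test and all intervals cover counting error only. At 86 member CpGs, or 27.3%, both shTet3 libraries lay below both shScr libraries, against 26.3% of all CpGs, and 29 of the 31 hypo-DMPs were among them. The F test, which scales the error by the spread between replicates, called 0 CpGs in the whole genome, and 4 member CpGs were lower at an unadjusted p below 0.05 by that test, against 72 by the likelihood ratio test. With 4 libraries the F test leaves few degrees of freedom, so its 0 calls cannot show whether the hypo-DMPs exceed that spread. Leaving out 1 library changed the number of hypo-DMPs both at the members and over all CpGs. In both it was lowest without shScr replicate 2 and highest without shScr replicate 1. CpGs on 1 MspI fragment share reads and are not independent of each other.

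The members were a mixture of highly methylated and nearly unmethylated genes. The mean over the 315 CpGs was 24.6% and 29.6% in the 2 shScr libraries and 20.8% and 20.5% in the 2 shTet3 libraries. Over the 143 promoter CpGs the shScr libraries had 13.8% and 17.8% and the shTet3 libraries 13.0% and 13.3%, a difference of -2.69 points. Over the 149 body CpGs they had 33.0% and 37.9% against 26.5% and 25.2%, a difference of -9.62 points, and over the 23 upstream CpGs 37.0% and 49.1% against 32.3% and 35.5%, a difference of -9.14 points. Neither shScr library overlapped either shTet3 library in any of the 3 sets, and the two-sided exact permutation test gave p = 0.33 for each, the smallest value that 2 libraries against 2 can give. In BS the promoter libraries overlapped, with 12.5% and 16.9% in shScr against 11.2% and 12.7% in shTet3 (permutation p = 0.67). Weighted by reads, the oxBS promoter difference was -3.30 points (permutation p = 0.67). Without shScr replicate 2 the difference was -0.170 points at promoters, -6.95 at bodies and -3.08 upstream, and without shScr replicate 1 it was -4.93, -11.8 and -15.2 points.

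At the members the median difference was larger in each higher range of the shScr level, whereas over all CpGs it was largest from 60 to 80%. Among the 176 member CpGs with a mean below 20% in shScr the median difference was 0 points, and 1 was a hypo-DMP. The 35 CpGs from 20 to 40% had a median of -6.29 points (-7.44 over all CpGs in that range), and 14.3% were hypo-DMPs against 10.4% of all. The 36 CpGs from 40 to 60% had a median of -11.9 points (-13.9 over all), and 13.9% were hypo-DMPs against 21.2%. The 43 CpGs from 60 to 80% had a median of -15.4 points (-18.2 over all), and 16.3% were hypo-DMPs against 35.8%. The 25 CpGs above 80% had a median of -24.4 points, against -16.9 points over the 95230 such CpGs, and 13 of them, or 52%, were hypo-DMPs against 43.6%. Over all 104 member CpGs above 40% the share was 24.0%, against 35.7% of all such CpGs. The shScr values that place a CpG in a range also enter its difference.

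**Figure D1:**
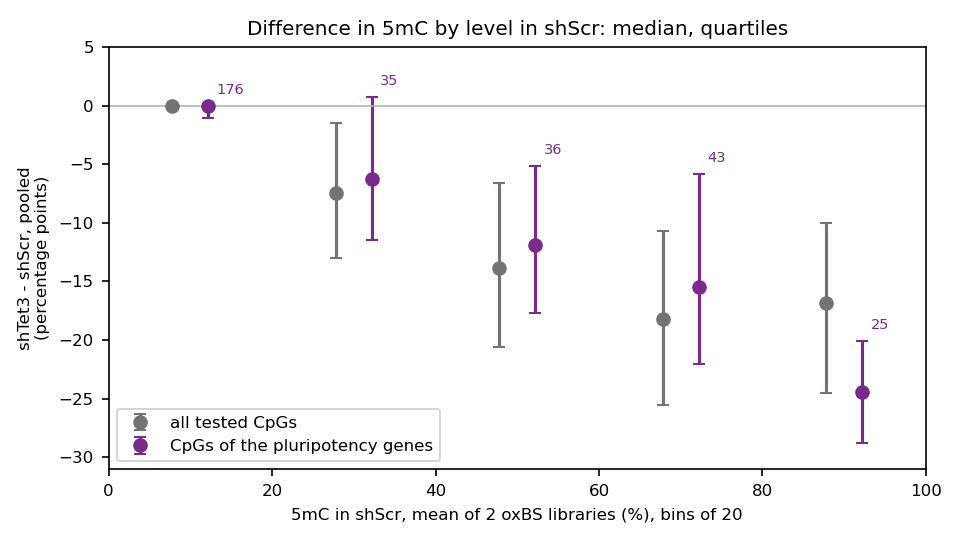
Pooled difference in 5mC between shTet3 and shScr in percentage points (y axis) against the mean level in the 2 shScr oxBS libraries in bins of 20% (x axis), for all tested CpGs (grey) and the CpGs of the pluripotency genes (purple, with their number beside each bin); points are medians and bars run from the first to the third quartile. The median of the members lay between 0 and -15.4 points up to 80% and at -24.4 points above it.

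The core factors *Pou5f1* and *Nanog* were covered at few places. *Pou5f1*, on the plus strand of chromosome 17 (35642982 to 35647721), had no tested oxBS CpG near its first TSS. The 2 CpGs listed there, 89 and 139 bp downstream in a coding exon, had fewer than 10 calls in at least 1 oxBS library. Its 5 tested CpGs lay 2013 to 2151 bp downstream of the first TSS and counted as promoter because the annotation places later TSSs in the gene. Their mean was 42.3% and 44.5% in shScr against 39.4% and 48.0% in shTet3, so the groups overlapped, and the difference was 0.288 points. In the BS libraries 9 CpGs could be tested, with means of 54.8% and 42.5% in shScr against 37.2% and 38.4% in shTet3. These groups did not overlap, with a difference of -10.8 points, and no single CpG passed the test.

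For *Nanog* (plus strand of chromosome 6, 122657507 to 122664651) all 5 listed CpGs lay between -4625 and -4483 bp from the first TSS, and no CpG of its promoter or body was listed. Their mean 5mC was 14.5% and 15.7% in shScr against 16.7% and 12.8% in shTet3. The groups overlapped, 3 CpGs were higher and 2 lower in shTet3, and none was a DMP. The CpG at -4517 bp was the only one with both shTet3 libraries (3.70% and 0%) below both shScr libraries (8.33% and 10.3%), a pooled difference of -7.41 points (*q* = 0.210).

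*Tcl1* (minus strand of chromosome 12, 106454967 to 106460947) had the largest mean difference of the members, -23.0 points over its 8 CpGs. In its intron, 4 CpGs between 4705 and 4762 bp downstream of the first TSS averaged 92.8% and 90.0% in shScr against 64.7% and 60.3% in shTet3, a difference of -28.9 points. All 4 had both shTet3 libraries below both shScr libraries, and 3 were hypo-DMPs, with pooled differences of -30.8, -28.8 and -30.4 points. Of all CpGs above 80% in shScr, 43.6% were hypo-DMPs. Of all CpGs above 40%, 60.1% had both shTet3 libraries below both shScr libraries. At the CpG 4718 bp downstream, which was lower in oxBS and in BS, 5mC was 93.8% and 88.0% in shScr against 61.5% and 58.2% in shTet3 (*q* = 0.00144). Coverage here was 16 and 25 calls in the shScr libraries and 52 and 55 in the shTet3 libraries. In the BS libraries the same 4 CpGs averaged 88.1% and 77.3% in shScr against 76.1% and 71.3% in shTet3, a smaller difference of -9.0 points. The 3 promoter CpGs, at -367 to -321 bp from the TSS, averaged 59.7% and 65.9% in shScr against 50.2% and 45.2% in shTet3, a difference of -15.1 points. The middle one of the 3, at -341 bp, was a hypo-DMP in both kinds of library, with 78.7% and 68.2% in shScr against 56.7% and 42.3% in shTet3 by oxBS (*q* = 1.41e-05), and 57.6% and 77.3% against 41.5% and 32.2% by BS (*q* = 3.78e-07). A single CpG at -3611 bp had 82.9% and 100% in shScr against 78.3% and 58.6% in shTet3, and did not pass (*q* = 0.0199). The part of *Tcl1* that the bisulphite primers of the study amplify matched mm9 at chr12:106460347-106460634, a run of 288 bp with 12 CpGs, no CCGG and no listed CpG, so these libraries do not read it.

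**Figure D2:**
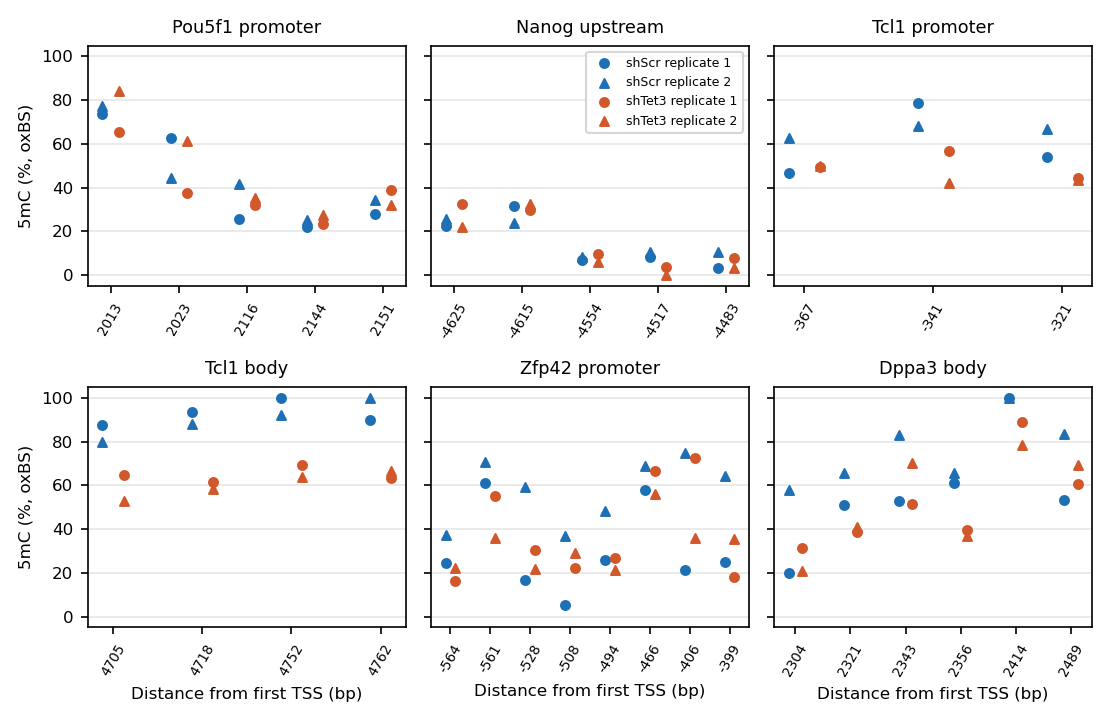
5mC of single CpGs in the 4 oxBS libraries (y axis, %) at 6 regions of *Pou5f1*, *Nanog*, *Tcl1*, *Zfp42* and *Dppa3*, each CpG labelled by its distance from the first TSS in bp (x axis, evenly spaced); blue is shScr, orange is shTet3, circles are replicate 1 and triangles replicate 2. All 4 body CpGs of *Tcl1* had both shTet3 values below both shScr values, while the values overlapped at every *Pou5f1* CpG. Of all CpGs above 40% in shScr, 60.1% had both shTet3 values below both shScr values.

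*Esrrb* (plus strand of chromosome 12, 87702067 to 87862578) held most of the calls, 20 of the 31 hypo-DMPs in oxBS and 19 of the 29 in BS. Its 100 tested oxBS CpGs averaged 41.8% and 47.5% in shScr against 31.9% and 30.9% in shTet3. Of these CpGs, 91 were lower and 8 higher in shTet3, and at 57 both shTet3 libraries lay below both shScr libraries. In the gene body alone, 74 of 81 were lower, and at 48 both shTet3 libraries lay below both shScr libraries. Over all CpGs in gene bodies 73.9% were lower, 40.7% had both shTet3 libraries below both shScr libraries and 22.3% were hypo-DMPs, so the share of hypo-DMPs in the 81 *Esrrb* body CpGs (18 CpGs, 22.2%) was at the background. When CpGs at most 300 bp apart were grouped, they formed 21 tested stretches, and the mean of the shTet3 libraries was below that of the shScr libraries in all 21, by 1.72 to 30.2 points. In 14 of the 21 both shTet3 libraries lay below both shScr libraries. Stretches of all genes were not formed, so these counts have no share over all genes beside them. Of all single CpGs above 40% in shScr, 94.1% were lower, and 60.1% had both shTet3 libraries below both shScr libraries.

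The level changed along *Esrrb*. Near the first TSS, 3 intronic CpGs 707 to 772 bp downstream had 58.7% and 69.0% in shScr against 42.9% and 42.7% in shTet3, and 2 of them were hypo-DMPs in both kinds of library (pooled oxBS differences of -25.6 and -25.2 points, *q* = 2.51e-07 and 1.48e-06). The 15 promoter CpGs of a shorter transcript, 60705 to 60970 bp downstream of the first TSS, had little 5mC, 11.2% and 7.22% in shScr against 3.99% and 5.46% in shTet3. The only hypo-DMP among them went from 37.5% and 25% to 13.3% and 17.9% in oxBS (*q* = 0.000870), and its BS values overlapped, with 13.2% and 20.5% in shScr against 25% and 16.2% in shTet3. Right after this low stretch, 21 tested CpGs of a stretch 61444 to 62127 bp downstream averaged 34.1% and 29.7% in shScr against 20.1% and 22% in shTet3, and their 5 hypo-DMPs were all lower in BS too.

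Many of the intronic stretches further on were highly methylated in shScr. In the 5′ stretch printed above, 129623 to 129772 bp downstream, 5 CpGs averaged 83.4% and 85.4% in shScr against 69.4% and 60.9% in shTet3, and 4 were hypo-DMPs, 1 of which was lower in BS too. Of all CpGs above 80% in shScr, 43.6% were hypo-DMPs. In the 3′ stretch printed above, the 6 CpGs averaged 78.3% and 81.4% in shScr against 47.0% and 52.3% in shTet3, a difference of -30.2 points. Its CpG at position 87859086 had the largest pooled difference in the *Esrrb* body, -54.3 points, from 84.6% and 87.0% to 20% and 37.9%, on 13 to 29 calls per library, while in BS it did not pass (76.5% and 90.5% against 64.7% and 54.5%, *q* = 0.0238). The 4 CpGs upstream of the gene differed more between the shScr replicates (34.9% and 79.9%) than between the shRNAs (30.9% and 41.7% in shTet3). Their only hypo-DMP had 64.3% and 95.5% in shScr against 10.5% and 40.7% in shTet3 (*q* = 1.00e-05). Without shScr replicate 2 their mean difference of -21.1 points became 1.42 points.

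**Figure D3:**
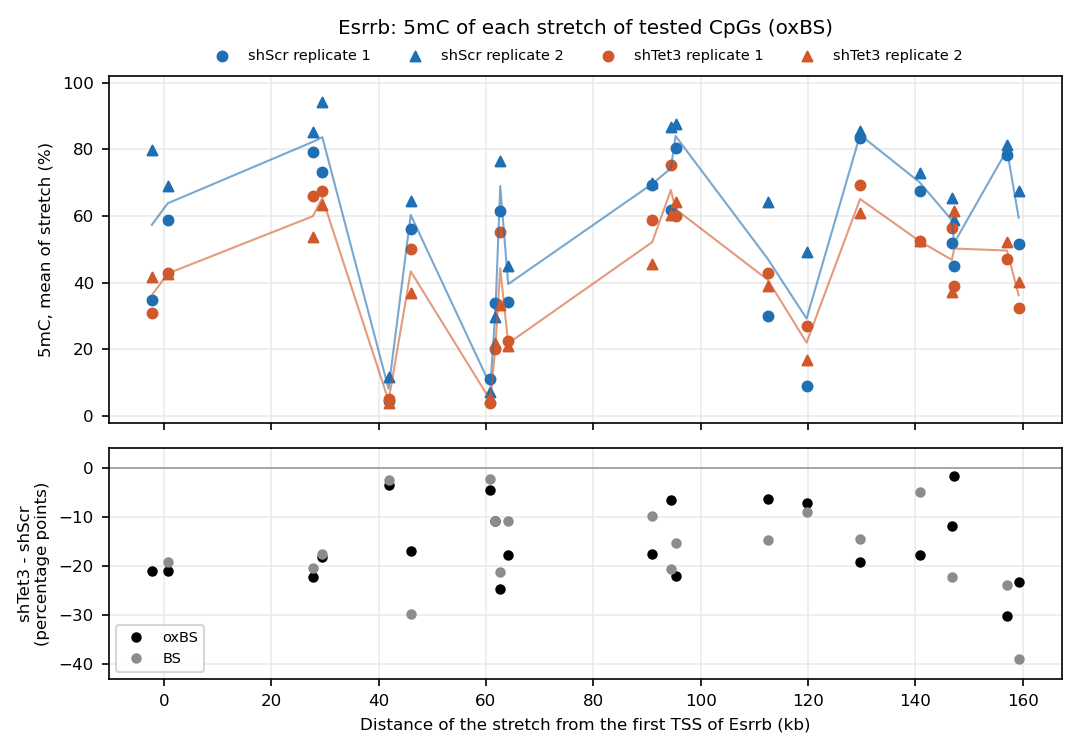
Mean 5mC of each stretch of tested CpGs of *Esrrb* in the 4 oxBS libraries (upper panel, y axis in %) and the difference of the means, shTet3 minus shScr, in oxBS (black) and BS (grey; lower panel, y axis in percentage points), against the distance of the stretch from the first TSS in kb (x axis); blue is shScr, orange is shTet3, circles are replicate 1, triangles are replicate 2 and lines join the means. All 21 oxBS stretches lay below 0 in the lower panel, from -1.72 to -30.2 points, and stretches of all genes were not formed for comparison.

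The other members with methylated CpGs gave mixed results. *Dppa3* (plus strand of chromosome 6, 122576428 to 122580290) had 6 CpGs 2304 to 2489 bp downstream of its first TSS, with means of 56.4% and 75.9% in shScr against 51.7% and 52.7% in shTet3, a difference of -14.0 points that was -4.25 points without shScr replicate 2 and -23.7 points without shScr replicate 1. Both shTet3 libraries lay below both shScr libraries, and the spread was far wider in shScr (SD 13.8, n = 2) than in shTet3 (SD 0.645, n = 2). Its hypo-DMP in a coding exon had 61.2% and 65.7% in shScr against 39.5% and 36.7% in shTet3 (*q* = 0.00608). In the BS libraries the 4 CpGs that could be tested averaged 59.3% and 82.9% in shScr against 43.3% and 29.2% in shTet3, and 1 of the 4, another than in oxBS, passed the test.

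*Tdgf1* (minus strand of chromosome 9, 110842114 to 110848662) had 2 listed CpGs. The one in its promoter, at -485 bp from the TSS, was a hypo-DMP, with 51.7% and 44.0% in shScr against 15.2% and 25.8% in shTet3, a pooled difference of -27.8 points (*q* = 0.00911). It had 25 to 33 calls in each library, and a 95% Wilson interval of the first shTet3 value ran from 6.65% to 30.9%. The other CpG, at -2157 bp, had 78.0% and 68.0% in shScr against 74.7% and 61.5% in shTet3 and did not pass (*q* = 1). Neither could be tested in the BS libraries.

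*Zfp42* (minus strand of chromosome 8, 44380422 to 44392363) was methylated, and its shScr replicates differed more than the shRNAs. The 8 promoter CpGs, at -564 to -399 bp from the TSS, averaged 29.7% and 57.5% in shScr against 38.5% and 32.2% in shTet3. Both shTet3 values lay between the shScr values, and the difference of -8.27 points turned to 5.67 points without shScr replicate 2. The 5 body CpGs had 61.1% and 71.6% in shScr against 65.2% and 59.7% in shTet3. No CpG of *Zfp42* was a DMP in oxBS, and 1 of 10 was lower in BS.

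*Klf4* (minus strand of chromosome 4, 55540013 to 55545347) and *Tbx3* (plus strand of chromosome 5, 120120678 to 120134733) carry CpG-rich promoters, and there 5mC was near 0 in all 4 oxBS libraries. The 51 tested promoter CpGs of *Klf4* averaged 0.374% and 0.455% in shScr against 0.217% and 0.133% in shTet3, and its 35 body CpGs 0.397% and 3.45% against 0.902% and 1.02%. The only hypo-DMP of *Klf4* had 3.51% and 31.4% in shScr against 8.89% and 6.19% in shTet3, so the groups overlapped and only shScr replicate 2 stood high. At *Tbx3* the 37 CpGs from -723 to 607 bp of the first TSS formed 3 stretches with means from 0% to 5.26% in each library. The methylated CpGs of *Tbx3* lay elsewhere. The 12 upstream CpGs averaged 39.8% and 46.9% in shScr against 32.0% and 38.8% in shTet3, and the 23 CpGs around a later TSS, 10003 to 10430 bp downstream of the first, 48.1% and 63.7% against 47.8% and 49.7%. Of the 4 hypo-DMPs of *Tbx3*, 2 lay upstream and 2 near that later TSS. The upstream CpGs also lie in the annotated gene *Gm2301*. The one at -4741 bp from the first TSS went from 81.1% and 96.0% to 50.0% and 71.4% (*q* = 1.19e-05).

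**Figure D4:**
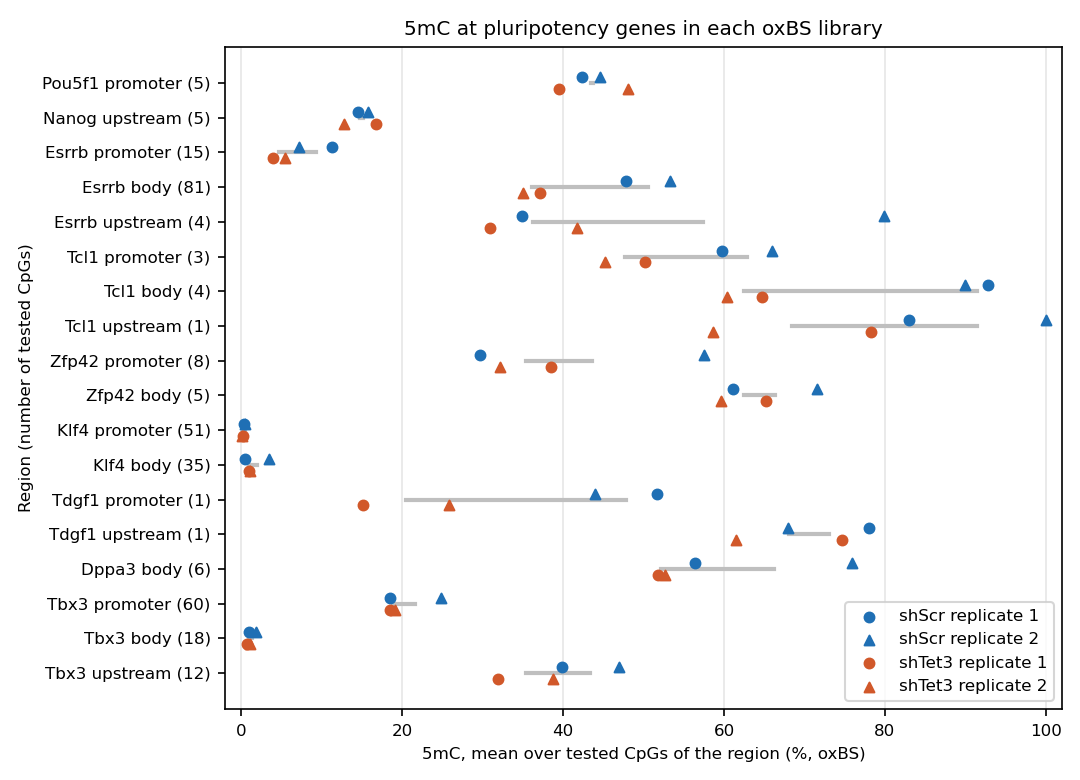
Mean 5mC of each region of the pluripotency genes in the 4 oxBS libraries (x axis, %), with the number of tested CpGs in brackets (y axis); blue is shScr, orange is shTet3, circles are replicate 1 and triangles replicate 2, drawn slightly apart, and the grey line joins the group means. The body of *Tcl1* had a mean of 91.4% in shScr and 62.5% in shTet3, the promoter and body of *Klf4* were at most 3.45% in every library, and the shScr replicates of *Zfp42* and of the *Esrrb* upstream CpGs lay far apart.

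To weigh these differences against the spread between libraries, the calls of each region with at least 3 CpGs were summed and compared with limma over all genes' regions of the same kind. None of the 15 member regions passed an adjusted p of 0.05, which was 0 of 6 promoters (0% of all 12921 promoters called lower), 0 of 6 bodies (0.0665% of 10526) and 0 of 3 upstream regions (0% of 3126). At an unadjusted p below 0.05, 1 of the 15 was lower, the body of *Tcl1*. By that measure 783 of all 12921 promoters, 2811 of all 10526 bodies and 357 of all 3126 upstream regions differed, so 1 of 6 bodies was not above the background. It had the largest change, -2.46 ± 0.77 (SE) in the log2 ratio of methylated to unmethylated calls, with an adjusted p of 0.0929 by limma. The adjusted p by limma was 0.208 for the *Esrrb* body (-0.999 ± 0.57), 0.239 for the *Dppa3* body (-0.95 ± 0.61), 0.763 for the *Tcl1* promoter (-0.89 ± 0.51) and 0.763 for the *Esrrb* promoter (-1.03 ± 0.51). When replicate numbers entered as a block, the *Tcl1* body passed, and without shScr replicate 1 the bodies of *Tcl1*, *Esrrb* and *Dppa3* and the *Esrrb* upstream region passed. That fit has 1 shScr library, assumed to vary like the shTet3 pair. The block pairs shScr and shTet3 libraries by replicate number, although nothing in the labels ties them. The adjusted p of the *Tcl1* body by limma was 0.215 without shScr replicate 2, 0.784 without shTet3 replicate 1 and 0.697 without shTet3 replicate 2, and none of the 15 regions passed in these fits.

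The 6 tested member promoters ranged from 0.415% (*Klf4*) to 62.8% (*Tcl1*) in shScr. The median level in shScr was 32.5% over the 6 member promoters, against 0.75% over all promoters tested, and 58.4% over the 6 member bodies, against 65.9% over all bodies. Their median difference was -3.65 points for promoters and -8.97 points for bodies, beside -0.176 and -12.7 points over all regions of the same kind. Most promoters of all genes had almost no 5mC to lose. Over the 3291 promoters and 9418 bodies of all genes above 10% in shScr, the medians were -6.99 and -13.7 points. The member medians also take in regions below 10%, namely the *Klf4* and *Esrrb* promoters and the *Klf4* and *Tbx3* bodies. Member bodies above 10% differed by -28.9 (*Tcl1*), -14.5 (*Esrrb*), -14.0 (*Dppa3*) and -3.94 points (*Zfp42*). Member promoters above 10% differed by -15.1 (*Tcl1*), -8.27 (*Zfp42*), -2.80 (*Tbx3*) and 0.288 points (*Pou5f1*). All 6 bodies, all 3 upstream regions and 5 of the 6 promoters had a lower mean in shTet3, the exception being *Pou5f1*. Over all genes 95% of bodies, 88.2% of upstream regions and 70.3% of promoters were lower, so these counts were near the background. The change in the log2 ratio, which weights CpGs by their calls, had the other sign at *Pou5f1* (-0.11), *Nanog* (0.11) and the *Klf4* body (0.31).

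The BS libraries were made from the other part of each DNA sample. They called 29 of 304 member CpGs lower (9.54%, against 13.8% of all CpGs) and 0 higher (0.0621% of all), with 1 higher at an unadjusted p below 0.05 by the likelihood ratio test and Fisher's exact test and 0 by the F test. Among the 280 CpGs tested in both, 28 were called in each and 13 in both, 46.4% of either set. This overlap was not counted over all CpGs, so it has no background share beside it. Of those 13, *Esrrb* held 10, *Tcl1* 2 and *Tbx3* 1. The *Tbx3* CpG, at -1814 bp, went from 39.0% and 44.6% to 9.26% and 9.84% in BS, but in oxBS shScr replicate 1 had 6.90% and replicate 2 had 44.0%, against 14.5% and 7.81% in shTet3. All 3 *Tcl1* promoter CpGs were called in BS, where they averaged 58.4% and 79.8% in shScr against 40.1% and 35.9% in shTet3. Of all CpGs above 40% in shScr by BS, 36.8% were called lower. By limma on the BS libraries the *Tcl1* promoter had an adjusted p of 0.874.

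The difference between BS and oxBS of the same DNA estimates 5hmC, and few CpGs of these genes showed any by the test. In shScr, 1 of 289 member CpGs had BS above oxBS (0.33% of all CpGs) and 1 had BS below oxBS (0.17%), a direction that 5hmC cannot give. The one above lay 2144 bp downstream of the first TSS of *Pou5f1*, with 55.9% and 31.8% in BS and 21.8% and 25% in oxBS. The one below lay in the 5′ stretch of *Esrrb* printed above, with 44.3% and 91.3% in BS and 82.9% and 81.8% in oxBS. In shTet3, 0 of 329 CpGs were called in either direction (0.0239% and 0.0141% of all CpGs), with 8 above and 5 below at an unadjusted p below 0.05 by the likelihood ratio test and by Fisher's exact test, and 1 and 0 by the F test. Over the 280 member CpGs covered in all libraries, BS minus oxBS averaged 0.178 points in shScr (-0.284 and 0.641 in the replicates) and 0.367 points in shTet3 (0.0493 and 0.685).

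**Figure D5:**
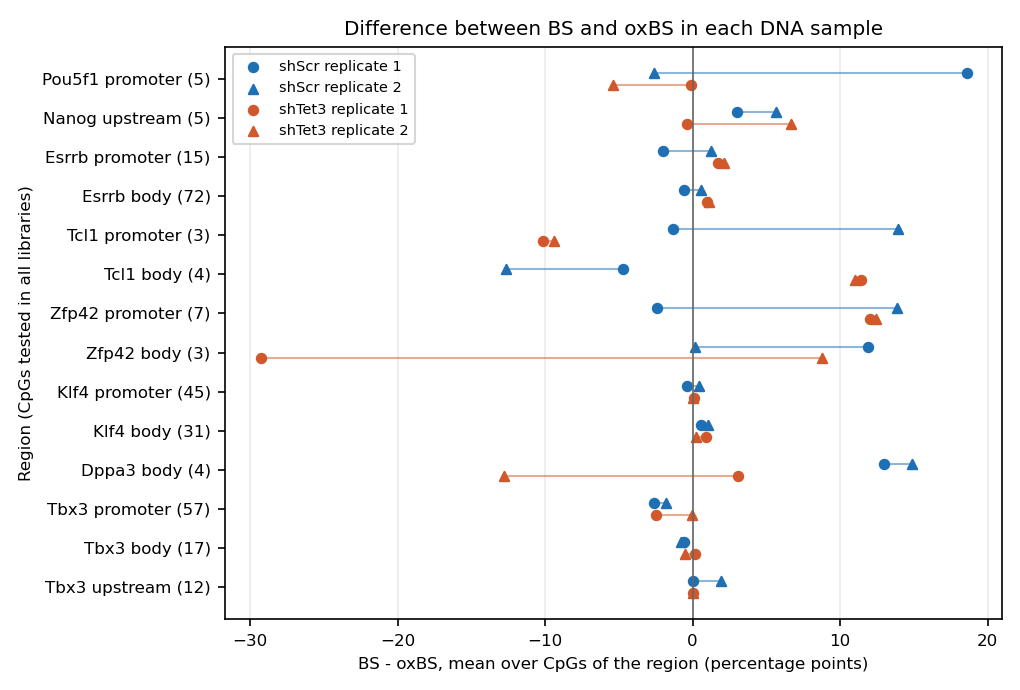
BS minus oxBS of each DNA sample in percentage points (x axis), as the mean over the CpGs of each region covered in all 8 libraries, with their number in brackets (y axis); blue is shScr, orange is shTet3, circles are replicate 1, triangles are replicate 2 and lines join the replicates. In the body of *Tcl1* both shScr samples lay below 0 and both shTet3 samples above it, a pattern not counted over all genes. The regions of *Klf4* and *Tbx3* lay between -2.65 and 1.92 points.

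Of the regions of other genes of the pluripotency network, none passed. Of 32 such genes 30 had a region with at least 3 tested CpGs, and 0 of their 51 regions passed in limma, with 3 at an unadjusted p below 0.05. All 3 were among the 22 promoters, beside 783 of all 12921 promoters. The mean was lower in shTet3 in 18 of 22 promoters (median -0.842 points), 20 of 23 bodies (median -3.98 points) and 6 of 6 upstream regions (median -8.57 points), beside medians of -0.176, -12.7 and -9.43 points over all genes. The levels in shScr differed too. Their medians were 4.05%, 25.2% and 58.1% in these promoters, bodies and upstream regions, beside 0.75%, 65.9% and 51.6% over all genes. Of all genes' regions, 70.3% of promoters, 95% of bodies and 88.2% of upstream regions were lower. Among promoters the largest differences downwards were at *Dppa2*, a partner of *Dppa4* (71.6% to 50.7%), *Lefty1*, a NODAL antagonist (62.7% to 42.5%), and *Tet1*, a dioxygenase gene of ES cells (65.5% to 45.6%), and the largest higher values were at *Otx2* (22.7% to 24.9%), *L1td1* (5.82% to 6.16%) and *Tet2* (0.0330% to 0.200%). The neural genes *Pax6*, *Nes*, *Tubb3* and *Ntrk2* had a lower mean in all 9 of their regions, as most regions of all genes had, with 0 calls by limma and 0 at an unadjusted p below 0.05, and *Sox1* had no region with 3 tested CpGs.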

How the data were processed

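Oxidative and plain reduced representation bisulphite libraries of shScr and shTet3 NPCs were analysed from deposited tables. Per the labels and methods, the authors trimmed reads with Trim Galore, aligned them with Bismark to mm9 and used methylKit. The deposited files list, per CpG, the percent methylation and the counts of methylated and unmethylated calls, and every listed CpG had at least 5 calls in all 8 libraries. Median coverage per library over all CpGs was 43 to 54, and 95% Wilson intervals of the 116 oxBS values of 29 named CpGs were 2.47 to 49.5 points wide (median 20.0).

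Here, CpGs covered at least 10 times in each library of a comparison were tested by logistic regression (likelihood ratio test, scipy 1.17.1, Python 3.11.15) with Benjamini-Hochberg adjustment over all CpGs, at *q* below 0.01 and more than 10 points. Summed calls per region (at least 3 CpGs, 1 call added to each) were tested with limma 3.58.1 in R 4.3.3 at an adjusted p of 0.05, over all genes. Both tests were run on simulated data. The simulated CpG counts had no spread between replicates beyond counting error, so they cannot show how the likelihood ratio test behaves under such spread. All members are named. Single CpGs named are those with the largest non-overlapping difference per region, those called in oxBS and BS, and all of members with 3 or fewer. CpGs of *Klf4*, *Pou5f1*, *Tcl1*, *Esrrb* (the CpG with BS below oxBS) and those of stretches were named after their values were seen. The members and lists were chosen with earlier results of these data known. The replicate number pairs BS with oxBS of one DNA sample (correlation of deviations 0.509 in shScr and 0.246 in shTet3), whereas nothing ties same-numbered shScr and shTet3 libraries (-0.0361 in oxBS). Alternatives covered coverage, test, replicate block, region definition and each library left out. Expression was not analysed here.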

Additional observations from a re-analysis of the deposited data

Results flagged for a closer look

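The difference between BS and oxBS in the body of *Tcl1* had opposite signs with the 2 shRNAs. Over the 4 CpGs covered in all 8 libraries it was -8.708 points in shScr (-4.75 and -12.7 in the replicates) and 11.22 points in shTet3 (11.4 and 11), so every shScr sample lay below 0 and every shTet3 sample above it. Over the 6 CpGs covered at least 10 times in the 4 shTet3 libraries it was 5.22 points (5.51 and 4.92), less than on the 4 shared CpGs. The difference between the shRNAs was not tested. No other member region had this pattern with both samples of each shRNA on opposite sides of 0. How many regions of all genes have it was not counted. The shScr value has BS below oxBS, a direction that 5hmC cannot give. It rests on 58 and 91 calls over the 4 CpGs in the shScr oxBS libraries. Groups of 2 are too small for the range-based check of outlying libraries, and the effect of leaving out each library is given with the processing alternatives.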

How the results depend on the processing

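The 31 hypo-DMPs in oxBS and the 29 in BS both became 0 with the F test, as did the CpGs with BS above (1) and below (1) oxBS in shScr. The F test called 0 of all tested CpGs in each comparison and has few degrees of freedom. Its 0 therefore cannot show whether the calls exceed the spread between replicates. Leaving out 1 library at a time gave 14 to 37 hypo-DMPs and 0 to 2 hyper-DMPs in oxBS, 19 to 35 and 0 to 1 in BS, 0 to 8 CpGs with BS above and 0 to 4 with BS below oxBS in shScr, and 0 to 1 with BS above oxBS in shTet3. The lowest oxBS count, 14, was without shScr replicate 2, and the lowest BS count, 19, without shTet3 replicate 2.

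The mean difference over promoter CpGs, -2.69 points, was -4.79 at a coverage of 20 and -8.28 as a mean of member means, and ran from -4.93 to -0.170 with 1 library left out. Over body CpGs it ran from -11.8 to -6.95 and over upstream CpGs from -15.2 to -3.08. The median over the member regions, -4.50 points, was -8.00 at a coverage of 5 and ran from -9.17 to -0.0235, the last without shScr replicate 2.

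With the replicate block, which pairs shScr and shTet3 libraries that nothing ties, limma called 1 member region, the *Tcl1* body. Hypo-DMPs then numbered 34 in oxBS and 29 in BS. The paired fit changed no other call for a region or a count by over 1.5 times. Leaving out 1 library gave 0 to 4 called regions, the 4 without shScr replicate 1.

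The *Pou5f1* promoter difference turned to -10.6 at a coverage of 5, -10.8 in BS, -0.803 without shScr replicate 1 and -4.0 without shTet3 replicate 2, and was 4.58 without shTet3 replicate 1. Without shScr replicate 2 the sign turned at the *Tbx3* promoter (-5.96 to 0.368 over the libraries left out), *Zfp42* promoter (-22.2 to 5.67), *Klf4* body (-2.49 to 0.564), *Zfp42* body (-9.17 to 1.29), *Nanog* (0.270) and *Esrrb* upstream CpGs (-43.6 to 1.42), and without shTet3 replicate 2 at *Nanog* (1.60, from -2.33 over the libraries left out). In BS the *Tbx3* body was at 0.0441. The cause was not tested. Coverage below 10 left 52 of the 367 CpGs untested in oxBS.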
